A study of Mus musculus with 16 samples.

Results

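The comparison described here set 1 library of E8.5 mesoderm against 3 libraries of E8.5 neural epithelium, 4 of the 16 libraries of a survey of mouse face development. The embryos were of the outbred CD1 strain, with no treatment or transgene named in the labels, and E8.5 is embryonic day 8.5, when the head folds are closing into a brain. The neural libraries were labelled non-floor plate neural epithelium, floor plate, which is the ventral midline of the neural tube, and caudal brain neural epithelium. Each region had 1 library of total RNA, and the labels state neither the number of embryos in it nor the way it was dissected. Mesoderm therefore has no replicate error, and the differences between these 4 libraries are given without a p-value, apart from a limma fit at the end that borrows the spread of the neural libraries. A gene was counted when mesoderm differed from each of the 3 neural libraries by at least 2-fold in the same direction. It also needed a level of at least 5 in mesoderm (or, for genes lower in mesoderm, in all 3 neural libraries). A level is the deposited value of a gene divided by its lowest value over the 16 libraries, so it compares libraries for 1 gene and never 1 gene with another. Of the 15876 genes, 247 were counted higher in mesoderm, 1.56% of all genes, and 62 were counted lower, 0.391% of all genes.

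Head mesoderm is the loose tissue under the neural plate that gives rise to muscle, vessels and part of the skull. At this stage the cranial neural crest leaves the dorsal edge of the neural folds, loses its epithelial shape and migrates into the same space, where it later forms most of the facial skeleton. The first vessels assemble there from endothelial precursors, and primitive red cells made in the yolk sac enter the embryo as circulation starts. Neural epithelium, by contrast, is a polarised sheet patterned into forebrain, midbrain and hindbrain by transcription factors such as Six3, En1 and Gbx2.

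Marker genes were checked against the labels first. Twist1 and Foxc1, transcription factors of head mesenchyme, had levels of 21.0 and 15.1 in the mesoderm library and 1 in each neural library. Sox10, a factor of migrating crest, had a level of 12.9 in mesoderm against 1 to 1.08 in the neural libraries, and Cdh5, the cadherin of endothelial junctions, 15.9 against 1. The library labelled mesoderm thus held RNA of mesenchyme, crest and endothelium together, and in such a library fewer cells of a type and less RNA per cell cannot be told apart. Markers of other tissues were mixed. Gata1 (erythroid), Pf4 and Fcer1g (platelet and white cell), Myl7 (heart), Epcam, Krt8 and Trp63 (surface ectoderm), Shh and Foxa2 (floor plate) and Sox1 (neural) had a level of 1 in it. Other members of the same lists were above the floor: the globin Hba-x had 36.8, the leukocyte gene Lcp1 6.44, Mef2c of the heart and muscle list 5.44, the keratin Krt18 2.28 and the neural factor Sox2 3.16. As whole lists, the mean level in mesoderm was 4.71 for 23 erythroid genes against 1.24 to 1.36 in the neural libraries, 2.06 for 15 platelet and white cell genes against 1.298 to 1.40, 1.75 for 21 heart and muscle genes against 1.25 to 4.92, and 1.10 for 20 surface ectoderm genes against 1.20 to 2.63. For 12 endoderm and yolk sac genes it was 7.59 against 2.84 to 5.94, with Apoe and Dab2 counted higher and Sox2 lower. The part of all these cells in the results below was not tested.

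The 3 neural libraries differed among themselves. Non-floor plate and floor plate had the forebrain factor Six3 at 49.9 and 116, with 1 in caudal brain, while the hindbrain factor Gbx2 was at 15.8 in caudal brain and 1 in both others. The floor plate library also held genes that are not neural. Hand1, a factor of heart and lateral mesoderm, was at 49.5 there, Postn, a matrix protein, at 32.5, Acta2, smooth muscle actin, at 21.2 and Col1a1, a fibrillar collagen, at 15.6, against 1 to 4.71 in the other 3 E8.5 libraries. Such a gene cannot be counted higher in mesoderm. With the floor plate library left out, 321 genes were counted higher and 235 lower, without non-floor plate 354 and 106, and without caudal brain 282 and 115, numbers that can only grow when a condition of the rule is taken away. Between 56.2% (mesoderm) and 58.5% (non-floor plate) of the 8794 genes with a shared lowest value sat at that floor in the 4 libraries. The median log2 shift of the 7082 genes without a shared lowest value was 0.41 for mesoderm over non-floor plate, 0.13 over floor plate and 0.13 over caudal brain, and it was removed from every fold below.

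The smallest of the 3 folds had a median of 3.64 over the 247 higher genes. It was at least 4 in 106 genes, at least 8 in 30 and at least 16 in 4. In 60 of the 247 genes all 3 neural libraries were at the floor, and in 113 none was. Where the nearest neural library was at the floor, the fold is a lower limit and is written "at least". Of the 2227 genes with a level of 5 or more in mesoderm, 11.1% were counted higher, and of the 859 genes with such a level in all 3 neural libraries, 7.22% were counted lower. Every count of list members below stands against 1.56% higher and 0.391% lower of all genes.

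**Figure D1:**
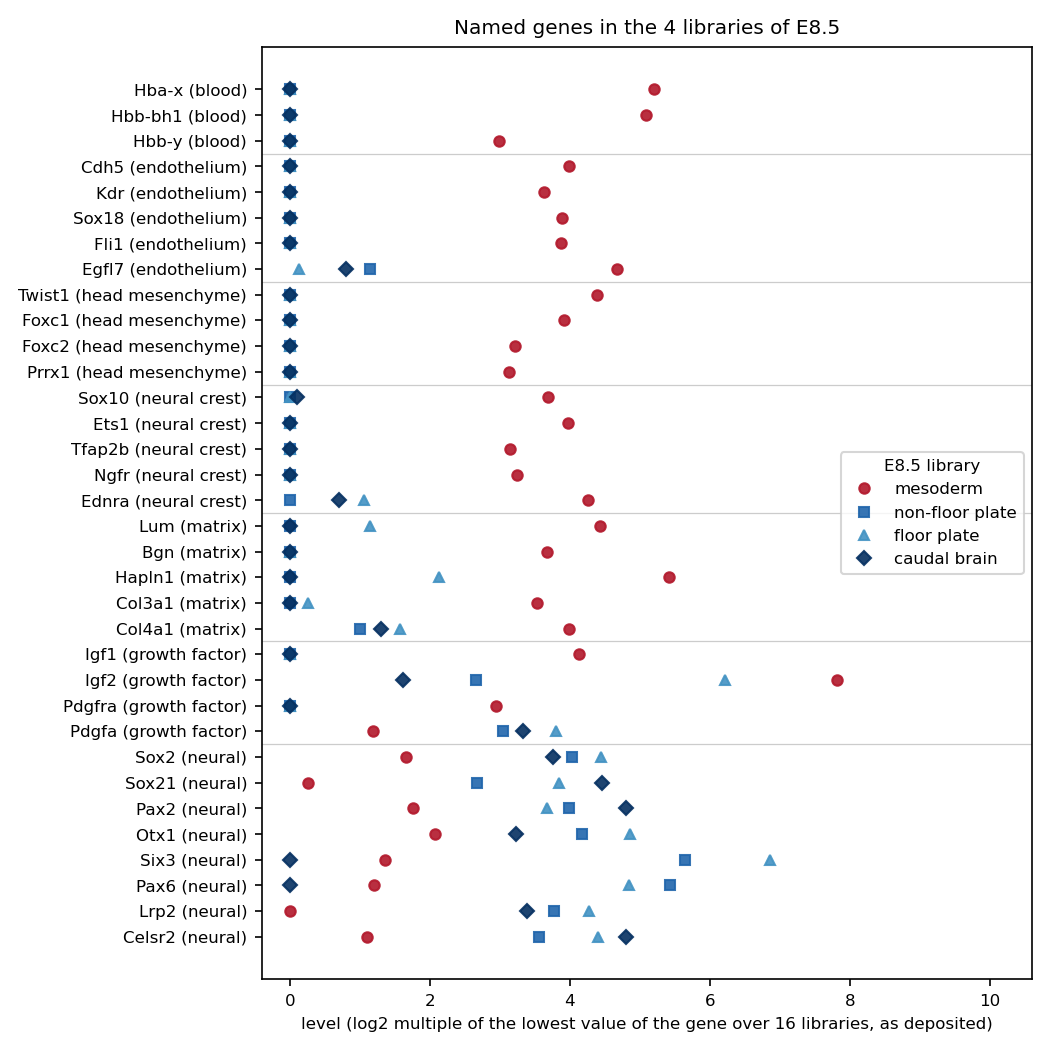
Levels of selected genes in the 4 libraries of E8.5, as log2 multiples of the lowest value of each gene over 16 libraries, with 1 point per library and no error, since each region had 1 library. Twist1, Cdh5 and Hba-x sit at 0, the lowest value, in all 3 neural libraries and at levels of 21.0, 15.9 and 36.8 in mesoderm, while Sox2, Sox21 and Celsr2 lie to the left in mesoderm.

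Transcription factors of mesoderm and mesenchyme were counted higher in 11 of 33 measured members and lower in 0. Their median log2 difference from the middle neural library was 1.38, against -0.13 over all genes. The value over all genes is the shift removed over floor plate, given by genes with equal deposited values there and in mesoderm. As deposited the medians were 1.51 and 0. Twist1, a basic helix-loop-helix factor of head mesenchyme, led them, at least 15.8-fold above each neural library. Eya1, a transcriptional coactivator, had levels of 8.82 in mesoderm, 1.67 in non-floor plate, 1.99 in floor plate and 2.04 in caudal brain, 3.96-fold above its nearest neural library.

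The forkhead factors Foxc1 and Foxc2, which act in head mesoderm and vessels, were at least 11.4-fold and at least 7.02-fold higher. Prrx1, a homeodomain factor of craniofacial mesenchyme, had 8.80 in mesoderm and 1 in each neural library. Prrx2, its paralog, had 8.69 against 2.18 in non-floor plate, 1 in floor plate and 1.01 in caudal brain. The early B-cell factors Ebf1, Ebf2 and Ebf3 stood at 8.80, 5.68 and 7.67 against 1 in each neural library. Of these homeodomain, forkhead and Ebf factors, Prrx2 alone had a neural library above 1.01.

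Other members of that list were not counted. Six2 (4.36), Alx4 (3.48) and Foxl2 (3.70) were at 1 in each neural library but below the level of 5 in mesoderm. Foxd1, a factor of head mesenchyme and of the forebrain floor, had 17.6 in mesoderm and 20.03 in floor plate, so floor plate stood above mesoderm. In 9 of the 33 members all 4 libraries were at the floor.

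Of the neural crest genes, 13 of 34 were counted higher and 0 lower, with a median log2 difference of 1.52. Sox10, the factor of migrating crest and its glial and pigment derivatives, was at least 9.70-fold higher. Over the 16 libraries its level exceeded 1.51 in mesoderm alone. Ets1, a factor of cranial crest and also of endothelium, had 15.7 in mesoderm and 1 in each neural library. Tfap2a and Tfap2b, early crest specifiers, had 10.4 and 8.83 in mesoderm and at most 1.92 and 1 in the neural libraries. Ngfr, a neurotrophin receptor used to mark crest cells, had 9.46 against 1.

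Ednra, the endothelin receptor that patterns arch crest, stood at 19.1 in mesoderm, 1 in non-floor plate, 2.08 in floor plate and 1.62 in caudal brain, 8.40-fold above the nearest. Sox9, which acts in crest and later in cartilage, had 8.72 against 1 to 1.74. Nr2f2, an orphan nuclear receptor, had 27.1 against 3.40 to 7.45. Msx1 (7.40), a homeodomain factor of arch mesenchyme, was counted as well. So were Ets2 (14.3), Nrp2 (24.9), a semaphorin and VEGF receptor, and Lmo4 (7.86), a LIM-only cofactor.

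Foxd3, an early specifier of the crest, had 4.29 in mesoderm and 1 elsewhere, below the level that counts. Snai2, a repressor of epithelial genes in crest, had 11.8 in mesoderm but 11.1 in floor plate. Crabp1, a retinoic acid binding protein, had 128 in mesoderm and 75.7 in caudal brain, 1.55-fold apart. These 2 genes were therefore high in mesoderm without being beyond all 3 neural libraries. Snai1, the related repressor of epithelial cadherin, was counted, at 8.001 against 1 in each neural library, as was Cdh11, a mesenchymal cadherin, at 16.2 against 1.95 to 5.83.

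Endothelial genes were counted higher in 18 of 46 members and lower in 0, with a median log2 difference of 1.95. The mean level of the 46 genes was 6.37 in mesoderm and 1.17 to 1.26 in the neural libraries. The upstream sequence of some of them is shown because the list mean was near the floor in the neural libraries, though not every member was at it. Factors of the ETS family (Ets1, Fli1, Erg and Elk3) were also among the higher genes themselves. Control of the endothelial genes by these factors was not tested. ETS proteins bind purine-rich sites around a core of GGAA. The windows are the 250 bases before the annotated start in RefSeq, build GRCm38.p6, read 5′ to 3′ on the strand of the gene. Capitals mark AGGAAG or its reverse complement CTTCCT, the 1 motif searched on both strands. The windows are chr6:115995006-115995255 (minus strand) for Plxnd1, chr5:147726012-147726261 (minus) for Flt1, chr3:137340828-137341077 (plus) for Emcn and chr5:75978456-75978705 (minus) for Kdr.
Plxnd1: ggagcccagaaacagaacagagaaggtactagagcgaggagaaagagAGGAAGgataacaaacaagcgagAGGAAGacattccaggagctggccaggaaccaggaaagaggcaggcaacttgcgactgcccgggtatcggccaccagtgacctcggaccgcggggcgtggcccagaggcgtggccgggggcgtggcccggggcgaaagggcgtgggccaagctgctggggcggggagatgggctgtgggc
Flt1: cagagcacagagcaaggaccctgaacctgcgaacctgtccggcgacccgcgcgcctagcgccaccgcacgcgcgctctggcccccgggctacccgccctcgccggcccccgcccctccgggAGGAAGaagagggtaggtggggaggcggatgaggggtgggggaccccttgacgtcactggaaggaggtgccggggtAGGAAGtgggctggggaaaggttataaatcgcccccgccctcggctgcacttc
Emcn: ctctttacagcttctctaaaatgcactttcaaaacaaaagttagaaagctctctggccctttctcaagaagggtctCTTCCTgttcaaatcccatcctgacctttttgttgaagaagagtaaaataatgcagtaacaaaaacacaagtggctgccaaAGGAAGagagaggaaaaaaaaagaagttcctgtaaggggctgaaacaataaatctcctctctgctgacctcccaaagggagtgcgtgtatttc
Kdr: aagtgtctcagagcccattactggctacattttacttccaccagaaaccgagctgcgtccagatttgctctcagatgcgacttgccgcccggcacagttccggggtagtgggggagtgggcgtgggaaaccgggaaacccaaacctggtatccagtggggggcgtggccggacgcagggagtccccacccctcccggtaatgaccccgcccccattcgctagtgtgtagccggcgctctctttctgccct
Plxnd1, Flt1 and Emcn each held 2 matches and Kdr 0. These windows do not stand for all endothelial genes: those of Tek and Flt4 held 0, that of Cd34 held 1 and a window of Egfl7 held 3. Of the 32851 windows of this length in the table, 29.5% held at least 1. A window was found for 160 of the 247 higher genes, and 35.6% of those 160 held at least 1 match. Among all 9458 measured genes with a window the share was 31.5%. For the endothelial genes a window was found for 9 of the 18, too few to compare shares. A match describes letters and is not a binding site.

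Plxnd1, a semaphorin receptor of endothelial cells, had a level of 24.2 in mesoderm and 1 in each neural library, at least 18.2-fold. Kdr, the main receptor for VEGF-A, had 12.4 against 1, 1 and 1, at least 9.32-fold. Flt1, the decoy receptor for VEGF, had 9.10 against 1, 1.09 and 1, and Flt4, the receptor for VEGF-C, 8.98 against 1. For each of these receptors the neural libraries were at or next to the floor. Egfl7, a matrix protein secreted by endothelium, had 25.5 in mesoderm, 2.22 in non-floor plate, 1.10 in floor plate and 1.74 in caudal brain, 8.64-fold above the nearest, a fold that rests on no floor value.

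Endothelial transcription factors were Sox18 (14.7 against 1 in each neural library), Fli1 (14.7 against 1), Erg (7.32 against 1) and Lmo2 (6.21 against 1 to 1.42). Surface proteins of endothelium included Cdh5, Pecam1 (6.16), Tek (7.07, the angiopoietin receptor, with 2.59 in floor plate), Emcn (10.3), Aplnr (10.99, the apelin receptor), Icam2 (6.12), Cd34 (6.66), Ecscr (7.77) and Ramp2 (13.2, with 4.70 in floor plate). Tek and Ramp2 were thus present in the floor plate library too. Factors and markers of early endothelium that stayed under a level of 5 were Etv2 (3.68), Tal1 (4.95), Sox7 (4.63), Cldn5 (4.19), Esam (4.26) and Eng (3.76), each with 1 in all 3 neural libraries. With a least level of 2 in place of 5, 30 of the 46 members were counted.

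Blood genes gave the largest folds of the higher genes. Hba-x, the embryonic alpha-like globin zeta, had a level of 36.8 in mesoderm and 1 in each neural library, at least 27.7-fold. Hbb-bh1, an embryonic beta-like globin, had 34.0 against 1, at least 25.5-fold, and Hbb-y, the epsilon-like globin, 7.97 against 1. Globin genes have close copies, and how reads were shared among the copies is unknown here. These 3 were the counted members of 23 erythroid genes, of which 13, Gata1 among them, were at the floor in all 4 libraries. Over the series the same globins were far higher in other libraries, with Hba-x at 1617 and Hbb-bh1 at 759 in E9.5 cranial mesenchyme. Of 15 platelet and white cell genes, Lcp1, an actin bundler of leukocytes, was counted, at 6.44 against 1.

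Matrix genes formed the largest counted group by number. Of 24 collagen genes 6 were counted higher and 0 lower, with a median log2 difference of 1.26, and of 51 other matrix genes 17 were higher and 1 lower, with a median of 1.03. Col4a1 and Col4a2, the paired chains of basement membrane collagen, had 15.9 and 16.3 in mesoderm against 1.998 to 2.98 and 1.06 to 3.004 in the neural libraries. Their smallest folds were 4.86 and 4.95. Col3a1, a fibrillar collagen of loose connective tissue, had 11.5 against 1, 1.19 and 1. Col26a1 (12.8) and Col23a1 (6.80) stood against 1 in each neural library, and Col5a1, which starts collagen fibrils, had 7.27 against 1.54 to 2.78.

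Col1a2 lay just outside the threshold with a fold of 1.99 over floor plate, at 12.8 against 1.20, 5.88 and 1.27. Of the basement membrane genes, Nid1 and Nid2, the nidogens that link laminin to collagen, had 7.12 and 15.1 and were 3.82-fold and 2.63-fold above the nearest library. Hspg2, perlecan, had 13.0 against 1.05 to 4.38. Lamb1, a laminin chain, had 15.7 against 3.98 to 7.16 and lay just inside the threshold at 2.01-fold. Lama5, the laminin chain of epithelia, had 1.42 in mesoderm and 2.90 to 4.27 in the neural libraries, below the level that counts.

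The hyaluronan matrix was represented by Vcan, versican, with 158 in mesoderm and 15.3, 21.0 and 41.8 in non-floor plate, floor plate and caudal brain. Hapln1, the protein that links versican to hyaluronan, had 42.6 against 1, 4.38 and 1, and Has2, the enzyme that makes hyaluronan, had 5.46 against 1 in each. Of the neural libraries, caudal brain held the most Vcan and floor plate the most Hapln1. The small leucine-rich proteoglycans Lum and Bgn had 21.7 and 12.8 and were 8.93-fold and at least 9.59-fold higher. Sparcl1, a secreted glycoprotein, was at least 16.7-fold higher with 22.3 against 1 to 1.06.

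Collagen processing genes counted were Pcolce, which enhances procollagen cleavage, at 11.4 against 1 to 1.42, Serpinh1, the collagen chaperone, at 15.3 against 2.46 to 4.57, Plod1, a lysyl hydroxylase, at 6.52 against 2.26 to 2.60, and Loxl2, a lysyl oxidase, at 10.53 against 2.05 to 3.26. The matrix gene counted lower was Spon1, spondin of the floor plate, with 3.66 in mesoderm and 8.63, 25.1 and 11.5 in the neural libraries. The integrin alpha chains Itga8 and Itga9 had 13.9 and 21.8 and were at least 10.49-fold and 9.62-fold higher. Integrins anchor cells to the matrix. Itgb1, the beta chain shared by many integrins, had 4.41 against 1.61 to 1.996, under the level that counts.

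Of 29 cytoskeleton and contractile genes, 7 were counted higher and 0 lower, against 1.56% and 0.391% of all genes, with a median log2 difference of 1.12. Cnn2, a calponin, had 47.9 against 1.14, 13.2 and 1.65. Tagln2, a transgelin, had 38.2 against 6.57 to 10.64. Tpm1 (11.7), a tropomyosin, Vcl (14.3), vinculin, Myl9 (14.0), a myosin light chain, and Actg1 (7.15), cytoplasmic actin, were between 2.17-fold and 2.42-fold above the nearest library. Vim, the intermediate filament protein vimentin, had 19.8 in mesoderm, 1 in non-floor plate, 4.77 in floor plate and 1.298 in caudal brain. Floor plate was the nearest neural library for many of these genes, the library that held Acta2 and Postn at high levels, and the part of such cells in these folds was not tested.

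In signalling, receptors and ligands fell on opposite sides for 1 pathway. Pdgfa, the ligand PDGF-A, had 2.27 in mesoderm and 8.24, 13.9 and 10.02 in the neural libraries, 4.82-fold lower. Its receptor Pdgfra had 7.72 in mesoderm and 1 in each neural library, at least 5.80-fold higher, and Pdgfrb, the receptor of mural cells, had 6.24 against 1. Both receptors were at the floor in the neural libraries, while the ligand was above it in mesoderm. With the VEGF genes, 7 of 14 members were higher and 1 lower, and Kdr, Flt1 and Flt4 of the endothelial list and Nrp2 of the crest list were among the 7. Vegfc, the ligand of Flt4, had 8.10 against 1 to 1.28. Vegfa, the ligand of Kdr, was not counted, at 3.21 against 1.98 to 5.42.

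Of 25 genes of the insulin-like growth factor axis and imprinted genes, 6 were counted higher and 0 lower, against 1.56% and 0.391% of all genes. Igf1 had 17.5 in mesoderm and 1 in each neural library, at least 13.2-fold. Igf2 had 225 in mesoderm, 6.30 in non-floor plate, 74.3 in floor plate and 3.08 in caudal brain, 2.76-fold above floor plate. H19, the imprinted RNA next to Igf2, followed the same order of libraries, with 41.2, 1.74, 14.7 and 1. Mir675, which lies within H19 and may share its reads, was also counted. Igfbp3 (7.71) and Igfbp4 (19.2), binding proteins of these factors, were 3.20-fold and 3.10-fold higher. Not all imprinted genes stood this way: Dlk1 had 1 in mesoderm and 12.4 in floor plate, and Meg3 had 1.83 against 2.75 to 6.51.

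Of 138 genes of the BMP, FGF, Wnt, hedgehog and Notch pathways, 2 (1.45%) were counted higher and 2 (1.45%) lower, against 1.56% and 0.391% of all genes. Of 35 BMP and TGF-beta genes, 16 hedgehog genes and 20 Notch genes, 0 were counted in either direction. Of 26 FGF genes Flrt2, a membrane protein that binds FGF receptors, was higher, at 14.6 against 1 to 1.92. Of 41 Wnt genes Rspo1, an activator of the pathway, was higher (26.5 against 1, 6.66 and 1.74). Fzd3, a receptor, and Sfrp1, a secreted antagonist, were lower, with 4.08 against 7.84 to 12.0 and 2.76 against 8.72 to 19.4. Axin2, a feedback target of Wnt signalling, had 23.0 in mesoderm and 19.5 in caudal brain but 1.93 and 3.15 in the others, so it was not counted.

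Ptch1, a feedback target of hedgehog signalling, had 11.04 in mesoderm and 2.59, 31.4 and 14.8 in the neural libraries, inside their range. Cyp26c1, an enzyme that degrades retinoic acid, was the counted member of 16 retinoic acid genes, with 10.01 in mesoderm and 1 in each neural library, and its level was at most 1.29 in the other 12 libraries. Of 14 chemokine and endothelin genes Cxcl12, a chemokine of mesenchyme, had 8.35 against 1, while its receptor Cxcr4 had 4.04 against 1.75 to 8.66. Ednra and Calcrl (13.4), the receptor partner of Ramp2, were the other counted members. Of 53 guidance genes Sema6d (5.32) and Robo2 (11.3) were counted beside Plxnd1 and Nrp2. The counts of these 3 lists stand against 1.56% of all genes counted higher.

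**Figure D2:**
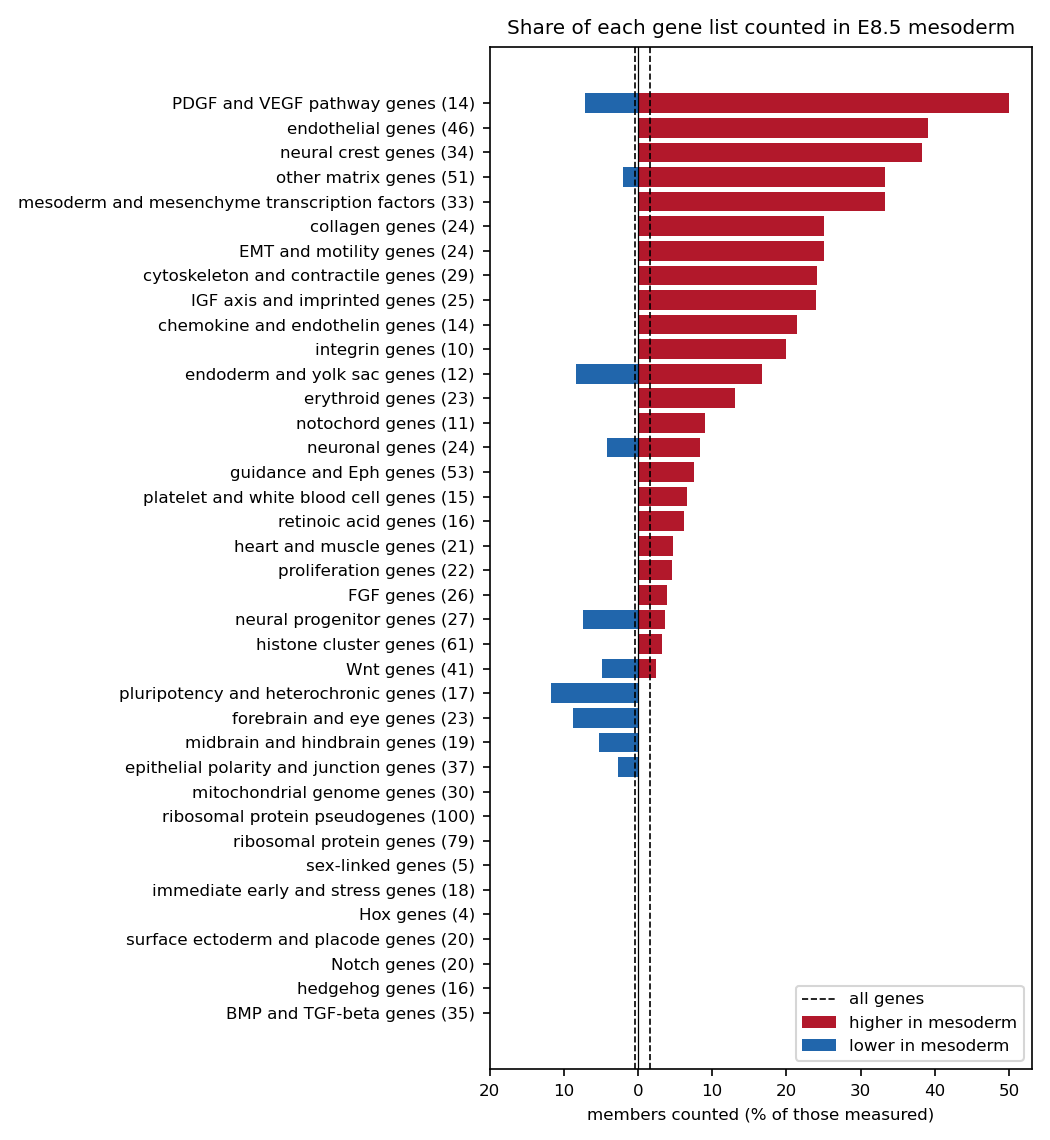
Share of the measured members of each gene list that was counted higher (red, to the right) or lower (blue, to the left) in E8.5 mesoderm, in percent, with the number measured in parentheses and the shares over all genes, 1.56% and 0.391%, as dashed lines. Among the lists drawn, the PDGF and VEGF list has the longest red bar (7 of 14) and the pluripotency list the longest blue bar (2 of 17), while a set of 4 genes picked from earlier results, Lars2 among them, is not drawn.

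Of 27 neural progenitor genes, 2 were counted lower in mesoderm, Sox2 and Sox21, against 0.391% of all genes. In that list 1 gene, Zic1, was higher and 24 were counted in neither direction. The median log2 difference was -0.41, which is the shift removed over non-floor plate. A gene with equal deposited values in those 2 libraries gets that difference, so it does not measure a decrease. As deposited the median was -0.17. Sox2, which maintains neural progenitors, had 3.16 in mesoderm, 16.4 in non-floor plate, 21.8 in floor plate and 13.6 in caudal brain, 4.70-fold below the nearest. Sox21, a related factor, had 1.20 against 6.36, 14.4 and 22.1 and was 7.08-fold lower. Pax2, a factor of the midbrain boundary and the eye, had 3.40 against 15.9, 12.7 and 27.8, 4.09-fold lower. Otx1, a head factor of forebrain and midbrain, had 4.21 against 18.0, 29.2 and 9.35, 2.43-fold lower. The highest neural level was in floor plate for Sox2 and Otx1 and in caudal brain for Sox21 and Pax2.

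Regional brain factors were mostly not counted, since they were at the floor in part of the neural libraries. Six3 had 2.56 in mesoderm and 1 in caudal brain, Pax6 2.30 and 1, and Lhx2, a selector of eye and cortex, 4.603 and 1, against 43.1 and 28.6 for Pax6 and 59.4 and 47.8 for Lhx2 in non-floor plate and floor plate. The forebrain list had a median log2 difference of -1.996, with 2 of 23 members counted. In the other direction En1, a midbrain factor, had 2.61 in mesoderm and 25.8 in caudal brain but 1 in both others. Levels of 2 to 5 for Six3, Lhx2, Pax6 and En1 in the mesoderm library lay above the lowest value, and their part in the results was not tested.

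A few neural genes were counted higher in mesoderm. Zic1, a zinc finger factor of dorsal neural tube and of head mesenchyme, had 9.26 against 1, 1 and 1.69. The neurofilament genes Nefl and Nefm had 9.71 and 7.42 against at most 3.42 and 2.12. In contrast Stmn2, a tubulin-binding protein of neurons, was lower, with 1.57 against 5.71, 11.3 and 7.22. Neuronal genes therefore had members on both sides, 2 higher and 1 lower of 24, against 1.56% and 0.391% of all genes. In 12 of the 24 all 4 libraries were at the floor.

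Of 37 epithelial polarity and junction genes, 1, Celsr2, was counted lower and 0 higher. The median log2 difference of that list was -0.13, as over all genes. Both are the shift removed over floor plate, given by genes with equal deposited values there and in mesoderm. As deposited both were 0, so their equality does not describe the list. Other lower genes of epithelium and transport are given singly here. Celsr2, a cadherin of planar polarity, had 2.15 in mesoderm and 11.8, 21.2 and 28.0 in the neural libraries, 7.27-fold lower. Lrp2, megalin, an endocytic receptor on the apical face of neural epithelium, had 1 against 13.7, 19.4 and 10.4, at least 11.4-fold lower. Scube2, a secreted protein that helps release hedgehog ligands, had 1 against 10.3, 11.1 and 7.77, at least 8.497-fold lower. Ezr, ezrin of the apical cortex, and Podxl, podocalyxin, were 2.55-fold and 2.91-fold lower. Slc2a1 and Slc2a3, the glucose transporters GLUT1 and GLUT3, had 17.2 and 14.4 in mesoderm against 33.9 to 44.5 and 28.8 to 60.8.

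Other named lower genes were Hook1, a linker of vesicles to microtubules (1.79 against 18.8 to 21.7, 11.5-fold lower), Gpr98, an adhesion receptor (1 against 7.66 to 13.7), Irak1, a kinase of interleukin-1 signalling (1 against 7.203 to 11.6) and Plch1, a phospholipase C (1.32 against 8.86 to 12.1). Zfp579, Abca2, Nuak2, Lrrn1, Nup210, Alpl, Ccdc88c, Cmss1 and Arl4c followed, with smallest folds between 5.58 and 7.92, lower limits for those with mesoderm at the floor. Sall2 and Sall4, zinc finger factors of early embryos, were 3.35-fold and 2.01-fold lower. Over the 62 genes the median of the smallest fold was 4.41.

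The largest differences in either direction belonged to 5 lower genes. Gm23935 had 1 in mesoderm and 767, 501 and 519 in the neural libraries, CT030226.1 1 against 813, 498 and 509, and Lars2, mitochondrial leucyl-tRNA synthetase, 1 against 281, 137 and 154. AC125254.3 and AC125254.1 had 1 in mesoderm and at least 475 and 274 in each neural library. Over the series Gm23935 was also at 1 in E9.5 epidermal ectoderm and both E9.5 arches, and at 1705 in E9.5 cranial mesenchyme, so libraries of like tissue fell on opposite sides. In the E10.5 lateral nasal prominence, arches and neural libraries Gm23935, CT030226.1 and Lars2 had levels between 21.7 and 295. Predicted genes, clones and pseudogenes made up 8 of the 62 lower and 14 of the 247 higher genes.

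Beyond the lists stood 139 of the 247 higher genes and 49 of the 62 lower ones. The higher genes of this kind with the largest folds included Elk3, an ETS factor (17.7 against 1, 1.65 and 1, 9.81-fold), and Foxl2os, which lies antisense to Foxl2, so that without strand its reads cannot be told from those of Foxl2 (12.1 against 1 in each). Of abundant gene classes, 0 of 79 ribosomal protein genes and 0 of 30 mitochondrial genome genes were counted. Of 61 histone cluster genes 2 were higher, against 1.56% of all genes. For the mitochondrial genome genes the neural libraries disagreed in mean level. The mean was 1311 in non-floor plate and 911 in caudal brain, but 5.34 in floor plate and 3.62 in mesoderm. A few genes with very high levels can set such a mean, so it does not describe the class. The median log2 difference of that list from the middle neural library was -0.86, and the cause was not tested. With values as deposited, without removal of the median shift, 334 genes were higher and 51 lower, among them 4 ribosomal protein and 14 histone genes.

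Over all 16 libraries the 247 higher genes reached their highest value in E8.5 mesoderm in 135 cases, a share to which the rule contributes. The next were E9.5 mandibular arch with 28, E9.5 cranial mesenchyme with 18 and E9.5 maxillary arch with 15. The mean log2 level of the higher genes was 2.57 to 2.81 in the 3 E9.5 mesenchymal libraries, 1.32 to 1.62 in the E10.5 lateral nasal prominence and arches, and 0.56 to 0.83 in the E10.5 neural libraries. It was 1.73 in E9.5 epidermal ectoderm, 1.49 in the E10.5 olfactory pit and 1.27 in the E10.5 medial nasal prominence, so epidermal ectoderm and the olfactory pit lay within or above the range of those E10.5 facial libraries. Over all genes the mean was 0.99 to 1.06 in the E9.5 mesenchymal libraries and 0.32 to 0.54 in the E10.5 lateral nasal prominence and arches, so all genes together were lower at E10.5 as well. The 62 lower genes had mean log2 levels of 2.73 to 3.21 in E10.5 neural libraries and of 0.75 to 1.01 in the E10.5 lateral nasal prominence and arches. In the medial nasal prominence and olfactory pit they had 2.97 and 3.17, close to the neural values.

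Single genes followed different courses. Twist1 stayed between 16.7 and 28.5 in the 3 E9.5 mesenchymal libraries and in the E10.5 lateral nasal prominence and arches. Ednra was at 12.2 to 15.1 in those 3 E10.5 libraries. Cdh5 had 7.33 to 9.38 in the E9.5 mesenchymal libraries and 1.97 to 3.32 in the same 3 E10.5 libraries. Lum had 17.7 in E9.5 cranial mesenchyme and at most 2.45 in the arches of either stage.

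**Figure D3:**
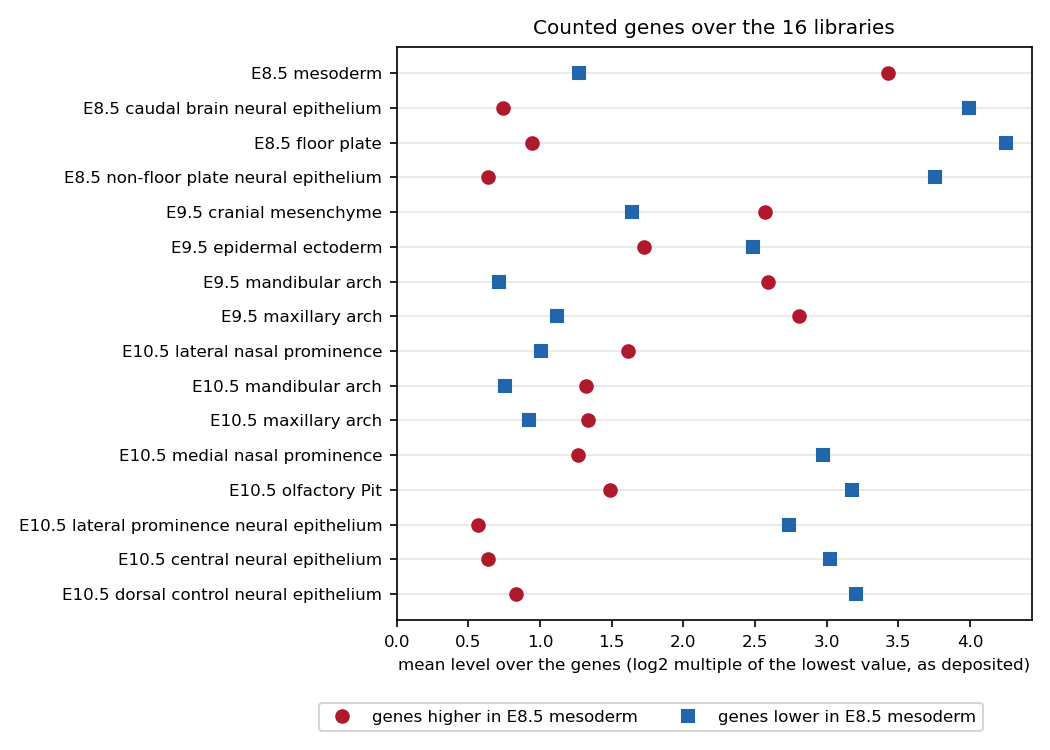
Mean level, as log2 multiples of the lowest value, of the 247 genes higher (red circles) and the 62 genes lower (blue squares) in E8.5 mesoderm, in each of the 16 libraries, with no error bars because each region had 1 library. Red lies right of blue in E8.5 mesoderm, in the 3 mesenchymal libraries of E9.5 and in the E10.5 lateral nasal prominence and arches, and left of it in each neural library, in E9.5 epidermal ectoderm (1.73 against 2.49) and in the E10.5 medial nasal prominence (1.27 against 2.97) and olfactory pit (1.49 against 3.17).

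The counted genes were then followed in 6 libraries outside the E8.5 contrast. These are still among the 16 whose lowest value sets a level, so the choice of genes is not fully independent of them. The E10.5 lateral nasal prominence, mandibular arch and maxillary arch were compared with the 3 E10.5 neural libraries by limma, with Benjamini-Hochberg adjustment over all genes fitted. These are other tissues at another stage, and the spread is between regions. The library labelled E10.5 medial nasal prominence was in neither group. Its mean log2 level was 1.27 for the higher genes and 2.97 for the lower ones, so the counts below do not describe it. Of 9512 genes fitted, 3.55% were higher in the facial libraries and 2.6% lower at an adjusted p under 0.05 and 2-fold. Of the 247 genes higher at E8.5, 77 were higher at E10.5 and 1, Vim, was lower, while 54 were not fitted because they were above the floor in fewer than 3 of the 6 libraries. Of the 62 lower genes, 28 were lower and 0 higher, with 8 not fitted. With the lowest value taken over the 8 libraries of E8.5 and E9.5 instead, an alternative chosen after seeing the data, 215 genes were counted higher at E8.5 and 48 lower, of which 73 were higher and 21 lower at E10.5, and Vim again was lower. A gene high in the 3 facial libraries alone passes the filter through its high group. Without a filter, over all 15876 genes, 70 and 28 passed, against 1.83% and 1.3% of all genes. With the lateral nasal prominence left out 26 and 17 passed, with the mandibular arch left out 36 and 24, and with 1 neural library left out 41 to 57 and 8 to 16.

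Twist1 was higher in the E10.5 facial libraries by 4.95 ± 0.29 (log2, SE) with an adjusted p of 0.00041 in limma. Prrx1 differed by 5.65 ± 0.46 (adjusted p = 0.0013), Col3a1 by 4.41 ± 0.28 (adjusted p = 0.00043) and Pdgfra by 2.69 ± 0.35 (adjusted p = 0.0047). The estimates for single genes, here and below, are of the fit with the filter. A gene high in the facial libraries alone passes that filter through its high group. Where neural values sit at the floor, the estimate is a lower limit and their spread is understated, so the p-value only describes the gene. In the fit without a filter, 70 of all 247 higher genes passed, against 1.83% of all genes. By list, 5 of the 6 counted collagen genes passed, 3 of the 6 of the insulin-like growth factor list and all 3 globins. So did 5 of the 11 mesoderm and mesenchyme factors, 7 of the 18 endothelial and 3 of the 13 crest genes. Of the counted EMT and motility genes 2 of 6 passed, and of the cytoskeleton and contractile genes 0 of 7. With the filter, among endothelial genes Fli1 (3.33 ± 0.34, adjusted p = 0.0022) and Cdh5 (1.71 ± 0.26, adjusted p = 0.0089) passed, and Kdr (1.04 ± 0.26, adjusted p = 0.053) and Sox18 (0.92 ± 0.27, adjusted p = 0.087) did not. Sox2 was lower by -3.51 ± 0.37 (adjusted p = 0.0022), Sox21 by -3.08 ± 0.29 (adjusted p = 0.0016) and Celsr2 by -2.68 ± 0.42 (adjusted p = 0.0097). Pdgfa, lower at E8.5, differed by 0.05 ± 0.71 (adjusted p = 0.97).

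**Figure D4:**
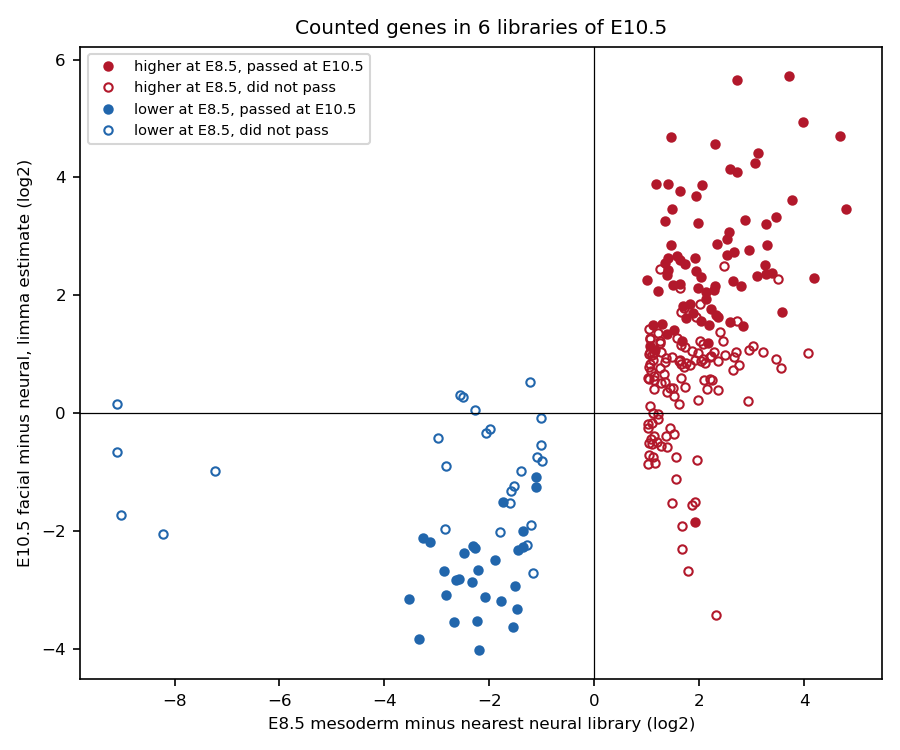
Difference of E8.5 mesoderm from its nearest neural library (x axis, log2, relative to the median gene) against the limma estimate for E10.5 facial minus neural libraries (y axis, log2), for the 193 higher (red) and 54 lower (blue) genes that were fitted, with filled points for genes that passed. Of the red points 163 lie above 0, and of the blue points 5 do, against 5055 of all 9512 genes fitted.

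The counts depend on the thresholds. Just inside the 2-fold threshold lay Lamb1 (2.01), Ftl1 and Lix1l (2.03 and 2.04), and just outside Col1a2 (1.99), Arid3a (1.99) and H2afx (1.98). In all 31 higher genes had a smallest fold from 2 to 2.2, and 44 genes with a level of 5 lay from 1.8 to 2. A single library against 3 allows an exact permutation p of 0.25 at best (one-sided). A limma fit over the 4 libraries takes the spread of mesoderm to be that of the neural libraries. Its filter kept 9955 genes, with 147 of the 247 higher genes and all 62 lower ones among them. The rest of the higher genes were at the floor in too many neural libraries to be fitted, so that fit did not test them.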

How the data were processed

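RNA from regions of CD1 mouse embryos was read as 50-base single-end reads with a stated depth of more than 40000000 reads, per the labels' protocols. Exact depth per library is unknown, so no counting interval was computed, and in place of replicates each group has 1 library. Per the submitters' processing notes Bowtie, TopHat, TopHat2, Cufflinks and the mouse build mm9 were used, with versions not stated. The deposited values are a ratio: in every gene the median over 16 libraries was 1, within 1e-06, so the authors had divided each gene by its median. In 8794 genes several libraries shared the lowest value, which is treated here as a floor. The unit before division is unknown.

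The column headings of the E10.5 central and dorsal control neural libraries do not match their titles, and the titles were used. Folds are relative to the median log2 shift of genes without a shared lowest value. Tests used limma 3.58.1 (trend fit, R 4.3.3) on genes above the lowest value in at least 3 libraries of the fit, and the code was tested on simulated data. The members and the 39 gene lists were chosen with earlier results of these data known. Named were the 20 genes with the largest smallest difference in each direction (predicted genes, clones and pseudogenes aside, those with the largest differences being named by exception after their values were seen), counted list members, uncalled defining markers, and genes next to the threshold. Genes given by their course over the libraries, and uncalled list members with high levels, were also chosen after their values were seen. Alternatives were other thresholds, values as deposited, a pseudocount of 1, left-out libraries and limma. Counted genes outside the named ones and the lists are given by number only, and some genes are not reported here. Promoters came from RefSeq (GRCm38.p6), and coordinates of the deposited build were not used.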

Additional observations from a re-analysis of the deposited data

Results flagged for a closer look

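Vim, counted higher in E8.5 mesoderm, was lower in the E10.5 facial libraries than in the E10.5 neural ones, by -1.85 ± 0.41 (log2, SE, limma, adjusted p = 0.037). Its levels were 45.0, 53.8 and 26.1 in the E10.5 neural libraries labelled central, lateral prominence and dorsal control, and 6.67 to 9.38 in the 3 facial ones, so those groups did not overlap. It was noted because the 2 stages went in opposite directions. The difference between the stages was not tested, since the E8.5 values chose the gene and E8.5 mesoderm is 1 library.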

How the results depend on the processing

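Counts of higher and lower genes in E8.5 mesoderm, 247 and 62, became 106 and 34 at 4-fold, 425 and 94 at 1.5-fold, 410 and 207 with a least level of 2, 110 and 22 with 10, and 410 and 254 with no least level. Against the geometric mean of the neural libraries they were 451 and 294, for genes without a shared lowest value 68 and 25, and with a level of 5 in any 1 neural library 150 were lower. Leaving out 1 neural library gave 282 to 354 and 106 to 235. Values as deposited gave 334 and 51 and a pseudocount of 1 gave 205 and 57, within 1.5 times of the counts reported. limma on 1 against 3 passed 0 and 4 genes of 9955 (278 and 339 at an unadjusted p under 0.05 and 2-fold), and without a filter, an alternative chosen after seeing the data, 73 and 27, of which 65 and 20 were counted genes. With the lowest value taken over the E8.5 and E9.5 libraries, also chosen after seeing the data, they were 215 and 48. Of 140 named or listed counted genes, 138 kept their call as deposited, 130 with a pseudocount of 1, 86 at 4-fold and 73 with a least level of 10, and the others kept their direction. Genes also passing at E10.5, 77 and 28, became 151 and 37 with the 3 E9.5 mesenchymal libraries in place of the facial ones, 65 and 36 as deposited, 80 and 25 with a pseudocount of 1, 73 and 21 with the lowest value taken over E8.5 and E9.5, and 26 to 57 and 8 to 31 when 1 of the 6 libraries was left out, which also leaves fewer libraries for the test. Without the lateral nasal prominence 26 and 17 passed, without the mandibular arch 36 and 24, without the maxillary arch 50 and 31, without lateral prominence neural epithelium 41 and 11, without central neural epithelium 44 and 8, and without dorsal control neural epithelium 57 and 16. Elsewhere the cause was not tested. No paired analysis was possible because each group has 1 library. Folds against the floor are lower limits, and depth per library is unknown.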
